A study of Mus musculus with 1086 samples.

Results

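The livers of male PWK/PhJ mice (PWK) were compared with those of the 7 other inbred founder strains of the Diversity Outbred stock. All 16 PWK libraries of the founder table were members, and the reference was the mean of A/J (AJ), C57BL/6J (B6), 129S1/SvImJ (129S1), NOD/ShiLtJ (NOD), NZO/HILtJ (NZO), CAST/EiJ (CAST) and WSB/EiJ (WSB). The founder table holds 128 libraries, 8 males for each strain and diet. Of these, 16 from PWK and 110 from the other strains were used, since 1 B6 library and 1 NOD library were each closer to another strain than to their own label. The labels name no engineered allele in any strain, and each library came from a separate male. The males were 26 weeks old, or 20 weeks for NZO, and the livers were snap frozen. Within each strain 8 males ate a high fat diet (HF) and 8 a control diet (chow) from 4 weeks of age. The labels describe these diets both as 45% of kcal from fat with 34% sucrose by weight against 17% of kcal from fat, and as 22% fat by weight against 6%, so which pair was fed is not settled.

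PWK descends from wild-caught mice of the subspecies Mus musculus musculus, CAST from M. m. castaneus and WSB from M. m. domesticus. The 5 remaining strains are classical laboratory strains of mostly domesticus ancestry. The liver makes most plasma proteins, clears drugs and steroids through families of duplicated enzyme genes, and in male mice secretes major urinary proteins that carry pheromones into the urine. Many of these gene families sit in clusters that vary in sequence and copy number between mouse strains.

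The major urinary protein (Mup) genes on chromosome 4 gave some of the widest gaps between PWK and the other strains. The promoters of Mup18, Mup9, Mup21 and Mup3 are shown as chosen examples. The sequences below come from the RefSeq promoter table for C57BL/6J (build GRCm38.p6), minus strand, 5′ to 3′. They end just after a TATATAA motif, in capitals, which lies 1 to 24 bases before each annotated start. Mup18 is at chr4:61674115-61674212, Mup9 at chr4:60421976-60422073, Mup21 at chr4:62150842-62150939 and Mup3 at chr4:62087321-62087418. RNAs of Mup18, Mup9 and Mup21 were higher in PWK, and that of Mup3 was lower.
Mup18: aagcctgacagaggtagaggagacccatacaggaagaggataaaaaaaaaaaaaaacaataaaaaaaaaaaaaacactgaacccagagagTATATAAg
Mup9: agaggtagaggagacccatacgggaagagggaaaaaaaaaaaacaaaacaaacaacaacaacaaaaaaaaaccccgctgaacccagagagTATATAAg
Mup21: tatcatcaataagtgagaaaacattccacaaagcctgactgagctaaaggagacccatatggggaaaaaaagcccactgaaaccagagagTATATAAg
Mup3: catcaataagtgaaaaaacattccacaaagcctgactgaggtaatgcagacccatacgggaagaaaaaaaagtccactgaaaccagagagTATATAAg
Over the last 30 bases Mup9, Mup21 and Mup3 each matched Mup18 at 26 positions (86.7%). These include the 7 bases of the motif, which match in all because the sequences were aligned on it. TATATAA, or TTATATA on the other strand, stood within 100 bases before the start in 11 of 14 Mup promoters and in 458 of 32851 mouse promoters (1.39%). These are B6 letters, and the PWK sequence was not analysed here.

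Every PWK library was closest to the other PWK libraries by correlation across genes. Estimated counts per library were 6456567 to 11447231 in PWK HF and 7028671 to 9980314 in PWK chow, against 5860330 to 14054314 in the other strains. A count equivalent is the deposited normalised signal scaled so that 1 unit is close to 1 read in an average library. Hepatocyte markers were abundant: 10 hepatocyte genes summed to 398693 to 909757 count equivalents in PWK (median 675961), against 307604 to 1218000 in the others (median 620899). Albumin (Alb), the main plasma protein, did not pass the test, with a log2 difference of −0.08 ± 0.11 (SE). PWK HF replicate 5 stood apart from the 7 other PWK HF animals in 451 genes (3.33% of those tested), against 46 to 261 genes for each other PWK library. The acute phase results and the share of genes with a diet difference are given with and without it.

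Of 13525 genes tested with limma, 8052 (59.5%) differed between PWK and the mean of the 7 others at an adjusted p under 0.05. PWK was higher in 3776 (27.9%) and lower in 4276 (31.6%), and the median log2 difference over all genes was −0.02. With so large a share called, a call alone set no gene apart. A difference of more than 2-fold was present in 1663 called genes (12.3%), 825 higher and 838 lower. Since a mean of 7 strains can be moved by 1 of them, PWK was also tested against each strain. It passed in the same direction against all 7 in 1582 genes (11.7%), called set apart below, with 709 higher (5.24%) and 873 lower (6.45%). In 0.835% of genes the 16 PWK libraries did not overlap the 110 others at all, 69 above them (0.510%) and 44 below (0.325%). Differences below are on the log2(count equivalents + 1) scale with the model's SE, and levels are given as a range over libraries with the median. Where a group holds zeros, the fold depends on the added 1 and is not printed.

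PWK livers carried a different mix of Mup RNAs. Among 17 Mup genes tested, 11 were higher, 5 lower and 1 was not called, with a median of 1.53, and 6 were set apart upward and 2 downward. The 18 Mup genes of the table took 4.78% to 21.9% of the signal in PWK libraries (median 13.3%), against 1.18% to 16.3% in the others (median 7.69%), so the 2 ranges overlapped. The lowest PWK share was that of HF replicate 5, and the other PWK libraries lay at 7.61% or more. Mup13 ranged from 54279 to 246533 count equivalents in PWK (median 129628), against 27.4 to 26062 in the others (median 190.4), a log2 difference of 8.76 ± 0.17 (adjusted p = 1.08e-76). No PWK library overlapped another strain for this gene, and the nearest strain was WSB, with a median of 14497. Mup18 ranged from 99896 to 546756 in PWK (median 300351), against 67.7 to 232675 in the others (median 581.3), a difference of 7.13 ± 0.15 (adjusted p = 7.79e-73). Here CAST came closest, at 77234 to 232675, and its range overlapped that of PWK.

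Mup9 ranged from 107773 to 537276 in PWK (median 316854), against 87.3 to 192340 in the others (median 40547), a difference of 3.38 ± 0.19. The PWK animal at 107773 was HF replicate 5, and every other PWK HF animal was at 268673 or more, above every other strain. PWK chow animals reached down to 160405 and so overlapped 129S1 (highest 192340) and CAST (highest 191114). Mup21, whose sequence is largely its own (95.5% of its 100-base windows occur in no other gene), ranged from 4476 to 17341 in PWK (median 11045), against 80.9 to 8755 in the others (median 1474). Its difference was 2.98 ± 0.23, with WSB nearest at a median of 5072. Mup20, which encodes darcin, a male pheromone, ranged from 12661 to 99997 in PWK (median 50238), against 32.7 to 85121 in the others (median 5722). That difference of 3.77 ± 0.24 passed against 6 strains, and the exception was B6, whose median was 40008.

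Mup3 went the other way, although it has 97.8% unique windows and a promoter like those above. It ranged from 599.4 to 1552 in PWK (median 1133), against 4816 to 107514 in the others (median 39204), a difference of −5.11 ± 0.12 (adjusted p = 9.96e-70). No PWK library reached the lowest of the other 110. Mup10 was lower than the mean of the others by −2.90 ± 0.15 and Mup1 by −2.33 ± 0.25, but the wild-derived strains were low too. Mup10 had medians of 6178 in PWK, 5751 in CAST and 2700 in WSB, against 62810 to 226428 in the 5 classical strains. Against CAST and WSB alone both were higher in PWK, Mup10 by 0.57 and Mup1 by 0.75. Mup13, Mup18, Mup16, Mup9, Mup14, Mup10, Mup8, Mup7 and Mup1 have 12.9% to 44.3% unique windows, so which copy their reads came from is uncertain. Mup20 has 61.2%. Of the 4 Mup genes with at least 95% unique windows Mup5, Mup6 and Mup21 were higher and Mup3 was lower.

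**Figure D1:**
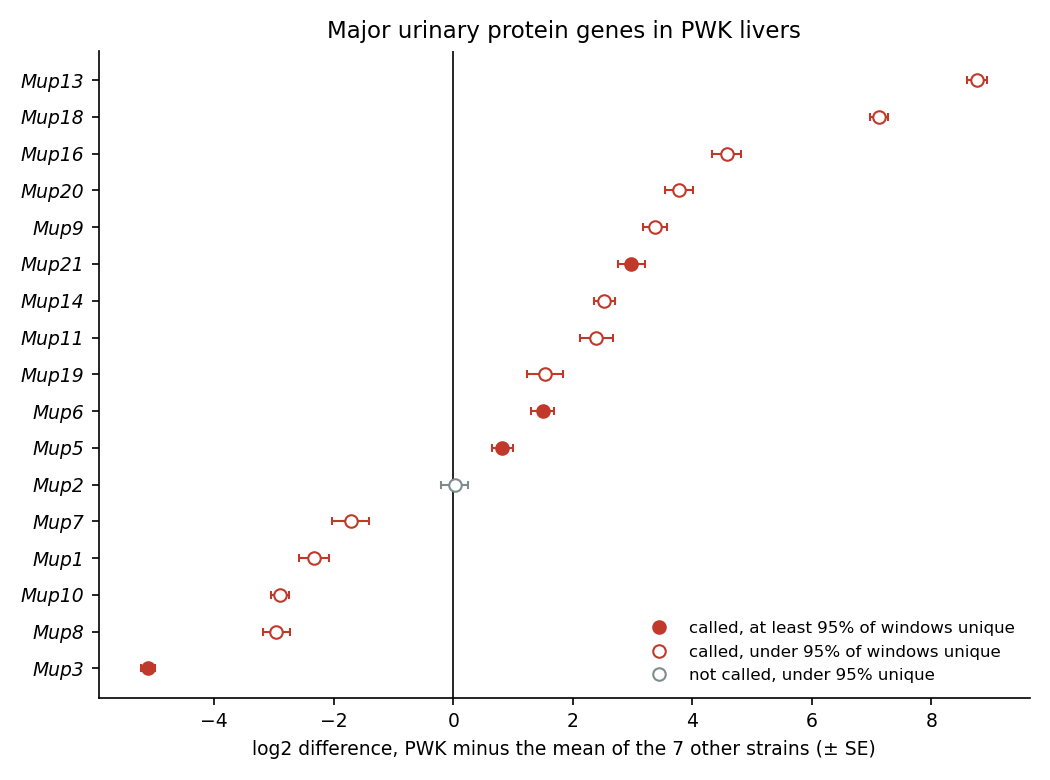
Log2 difference of each of the 17 tested Mup genes, PWK minus the mean of the 7 other strains, with bars for the SE of the fit; red points were called at an adjusted p under 0.05, and filled points have at least 95% unique windows. Mup13 (8.76) and Mup18 (7.13) lie at the upper end, Mup3 (−5.11) at the lower end, and 1 gene, Mup2, was not called.

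Sulfotransferases, which add sulfate to steroids, bile acids and drugs, held the single largest difference among genes named here. Of 10 tested 4 were higher, 6 lower and none uncalled, with a median of −0.83. Sult2a1, an enzyme that sulfates bile acids and steroids and is normally a female liver RNA in mice, ranged from 266.4 to 1337 in the 16 PWK males (median 815.1), against 0 to 15.4 in the others (median 0). The log2 difference was 9.14 ± 0.18 (adjusted p = 1.08e-76), and no library overlapped. Sult5a1, a male-biased sulfotransferase, ranged from 545.2 to 1024 in PWK (median 773.5), against 1.68 to 301.6 in the others (median 68.4), a difference of 3.67 ± 0.23, again with no overlap. Sult1e1, which inactivates estrogens, was the reverse, with 0 to 1.85 in PWK (median 0), against 0 to 1945 in the others (median 19.9). It was set apart, but CAST was close, with a median of 1.27.

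PWK was higher in most male-biased liver genes and lower in most female-biased ones, in males only. Of 29 male-biased genes tested 21 were higher, 6 lower and 2 not called, with a median of 0.63. Of 29 female-biased genes 8 were higher, 17 lower and 4 not called, with a median of −0.80. Against CAST and WSB alone 9 male-biased genes were higher and 9 female-biased genes lower, shares near those of all genes in that comparison (28.2% higher and 30.4% lower). Moxd1, a copper-dependent monooxygenase homolog, ranged from 128.8 to 4317 in PWK (median 1736), against 0 to 8656 in the others (median 8.37). The highest values were those of CAST (3412 to 8656), so PWK was not set apart. Cyp4a12b, an arachidonic acid hydroxylase with 63.8% unique windows, had a median of 2243 in PWK and 2184 in CAST, against 36.8 to 624.0 in the 6 other strains.

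Not all female-biased genes were low. Cyp2a4, a testosterone 15α-hydroxylase, ranged from 519.5 to 3195 in PWK (median 1324), against 0 to 2836 in the others (median 20.4), a difference of 5.63 ± 0.35 that was set apart. AJ was nearest and overlapped, with values from 30.5 to 2836. Cyp2c40, with 65.6% unique windows, had a median of 1541 in PWK and 2292 in CAST, against 17.8 to 65.5 in the 6 other strains. Cyp2b9, a constitutive female cytochrome, was at 0 to 1.75 in PWK and at 0 to 2.44 in CAST, WSB and 129S1, while AJ had a median of 643.7. The very low density lipoprotein receptor gene Vldlr ranged from 0 to 5.51 in PWK (median 0.471), against 0 to 198.2 in the others (median 13.6), a difference of −2.83 ± 0.23. It was not set apart, and NOD (median 1.10) and WSB (median 2.61) were low too.

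Cytochrome P450 enzymes oxidise drugs, steroids and fatty acids, and in PWK they went both ways. Of 32 Cyp2 genes tested 14 were higher and 13 lower, with a median of −0.01, and 3 were set apart in each direction. Cyp2d11 ranged from 527.4 to 1124 in PWK (median 943.6), against 0 to 532.4 in the others (median 4.16), a difference of 6.56 ± 0.19 (adjusted p = 8.26e-60). CAST, at 171.3 to 532.4, was the nearest strain and reached into the PWK range at HF replicate 5 and at no other PWK animal. Cyp2c38, an epoxygenase, ranged from 0 to 3.78 in PWK (median 2.15), against 0 to 1545 in the others (median 153.6), with a WSB median of 4.30. Cyp4f14, an ω-hydroxylase of leukotriene B4, was low in PWK, at 13.5 to 125.8 (median 42.9), against 104.9 to 3107 in the others (median 1551). Its difference was −4.86 ± 0.14 (adjusted p = 6.59e-59). Cyp4a14, a target of the fatty acid sensor PPARα, had a median of 3.62 in PWK, 3.69 in CAST and 15.6 in WSB, against 26.5 to 1905 in the classical strains.

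Conjugating enzymes split in the same manner. Of 23 glutathione S-transferase genes 11 were higher and 9 lower (median 0.13). The neighbours Gstm2 and Gstm3 were both set apart downward. Gstm2 ranged from 0.876 to 22.0 in PWK (median 15.7), against 6.43 to 1296 in the others (median 312.5), with NZO nearest at a median of 24.1. Gstm3 ranged from 0 to 1.51 in PWK (median 0.443), against 0 to 1982 in the others (median 162.2), with NZO at 2.26 and CAST at 5.53. Gsta1 was higher by 2.80 ± 0.36, although HF replicate 5 was at 4.64 and every other PWK HF animal at 46.2 or more. With 19.4% unique windows Gsta1 is an uncertain copy. Of 18 UDP-glucuronosyltransferase genes 6 were higher and 8 lower (median −0.21). Ugt1a10, at 0 to 2.91 in PWK, against 0 to 2421 in the others, shares most of its sequence with the rest of the Ugt1a locus (47.7% unique windows).

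Carboxylesterases hydrolyse esters and stored lipid, and 3 of the 16 tested were set apart downward. In all 6 were higher and 8 lower, with a median of −0.17. Ces2a ranged from 15.8 to 151.1 in PWK (median 87.4), against 211.9 to 2059 in the others (median 1066), a difference of −3.59 ± 0.12 with no overlap. Its neighbour Ces2e ranged from 152.5 to 366.4 (median 198.5), against 336.1 to 2331 (median 1060), while the pseudogene Ces2d-ps beside them was higher by 4.22. Ces1g ranged from 5.66 to 68 in PWK (median 23.1), against 27.2 to 2418 in the others (median 292.1).

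**Figure D2:**
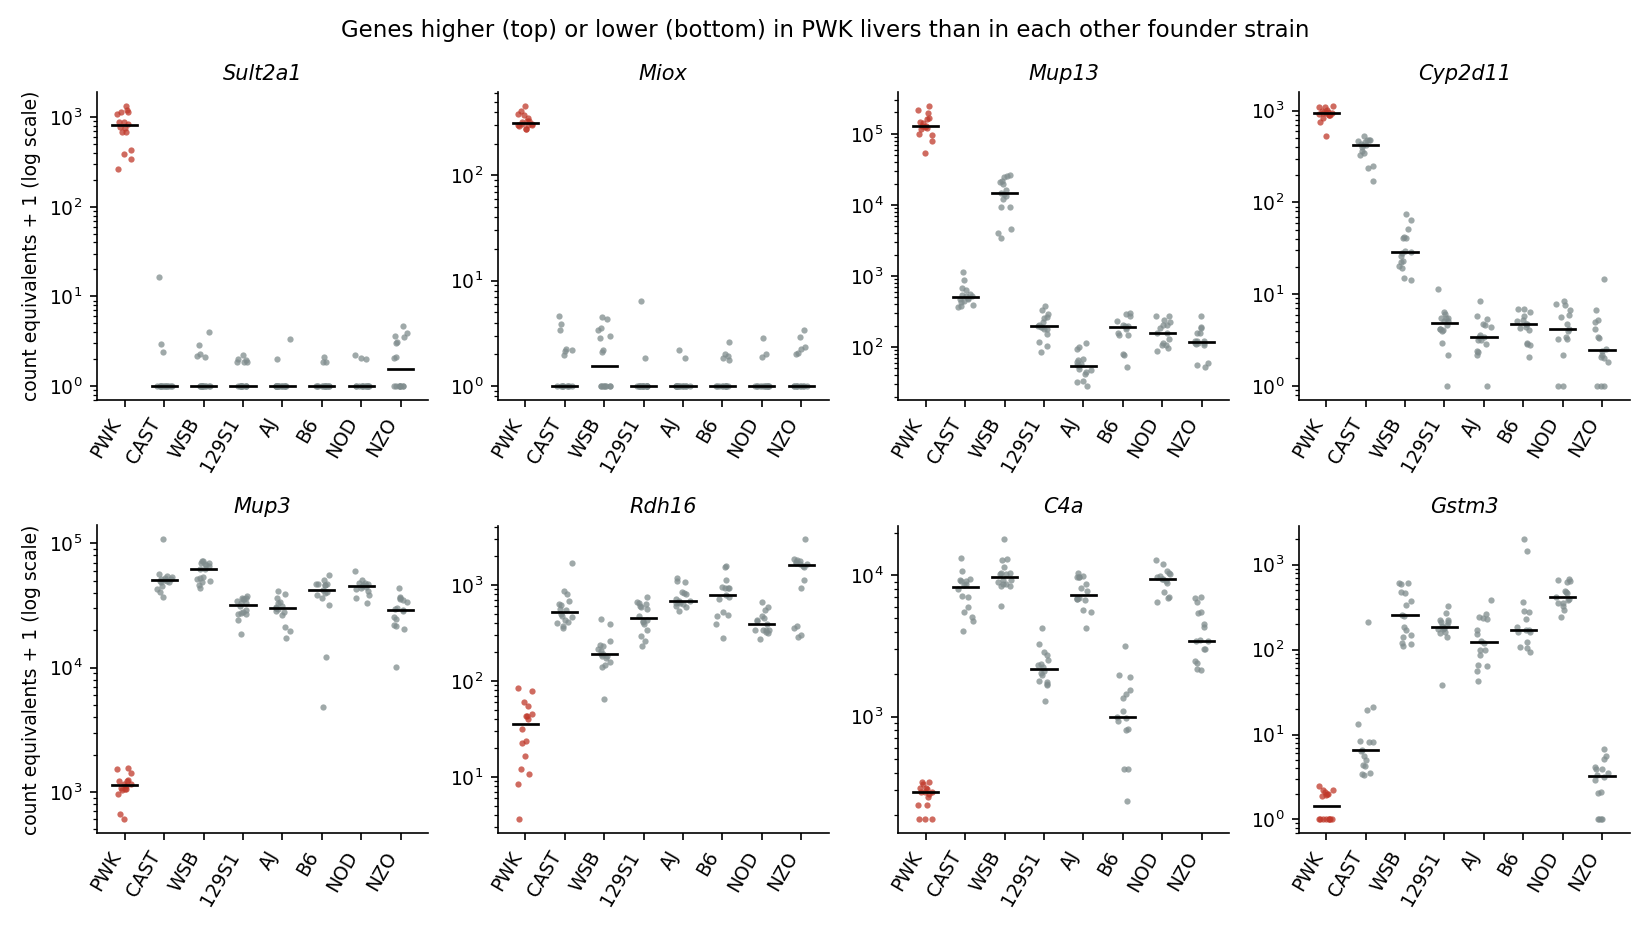
Levels of 8 genes in single libraries of PWK (red) and the 7 other strains (grey), in count equivalents + 1 on a log axis, with a black line at each median. The upper genes are higher in PWK than in each other strain and the lower genes are lower; Cyp2d11, Rdh16, C4a and Gstm3 overlap at least 1 other strain, while Sult2a1, Miox, Mup13 and Mup3 do not.

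Sdr9c7, Rdh16 and Rdh16f2, 3 genes of a short-chain dehydrogenase cluster on chromosome 10, were set apart downward in PWK. Sdr9c7 ranged from 0 to 5.80 in PWK (median 3.12), against 94.9 to 1700 in the others (median 437.0), a difference of −6.99 ± 0.16 (adjusted p = 3.29e-69). No PWK library came near another strain. Rdh16, a retinol dehydrogenase, ranged from 2.62 to 83 (median 35), against 64.2 to 2983 (median 537.9), a difference of −4.30 ± 0.16. Rdh16f2 ranged from 1.90 to 33.5 (median 6.23), against 24.6 to 727.5 (median 200.3), a difference of −4.67 ± 0.16. Rdh9 (−0.20) and Rdh7 (−0.15) of the same cluster were not set apart. Aldh1a1, which turns retinaldehyde into retinoic acid, lies elsewhere and was also low, at 742.8 to 2201 in PWK (median 1527), against 2425 to 14649 in the others (median 6561), with no overlap.

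Genes of cholesterol synthesis and uptake were higher where they were called at all. Of 24 tested 15 were higher and none lower, with a median of 0.35, although against the 5 classical strains alone 7 were higher, a share near the 28.1% of all genes. On HF 11 were higher and on chow 7 (21.1% and 23.9% of all genes), and the change with diet passed the test for 1 of the 24. No member was set apart. Sc5d, a late desaturase of the pathway, ranged from 591.5 to 2090 in PWK (median 1151), against 324.0 to 2598 in the others (median 685.7), a difference of 0.59 ± 0.11. Fdft1, which makes squalene, ranged from 221.2 to 1173 (median 474.4), against 88.9 to 1046 (median 278.6), a difference of 0.71 ± 0.15. Insig1, a sterol-sensing brake on the pathway, differed by 0.79 ± 0.17.

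In fatty acid and triglyceride synthesis 12 of 26 genes were higher and 2 lower (median 0.26). On HF 4 were higher and 2 lower (median 0.12), and on chow 12 were higher and 1 lower (median 0.48), where 21.1% of all genes were higher on HF and 23.9% on chow. When the change with diet was itself tested, 1 of the 26 passed. Pnpla3, a lipid droplet protein whose human variant is linked to fatty liver, ranged from 15.1 to 198.4 in PWK (median 93), against 0 to 458.3 in the others (median 5.63). Its difference of 3.26 ± 0.31 was set apart, but NZO overlapped widely, at 1.90 to 458.3. Fatty acid synthase, Fasn, ranged from 1760 to 6706 in PWK (median 2984), against 363.0 to 14191 in the others (median 1671), and the nearest strain, NZO, differed from it by 0.03. Pfkl, the liver phosphofructokinase of glycolysis, ranged from 512.5 to 689.7 in PWK (median 559.3), against 183.4 to 459.3 in the others (median 277.5), a difference of 1.06 ± 0.06 with no overlap. Among all 30 glucose genes 7 were higher and 9 lower (median 0.00).

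Fatty acid oxidation and PPARα target genes were more often lower. Of 34 tested 4 were higher and 18 lower, with a median of −0.28. Set against CAST and WSB alone 11 were lower, a share near the 30.4% of all genes. Ucp2, a mitochondrial carrier, ranged from 43.8 to 98.5 in PWK (median 56.9), against 64.1 to 489.2 in the others (median 170.6), a difference of −1.48 ± 0.12 that was set apart. Cpt1a, the entry step for fatty acids into mitochondria, differed by −0.44 ± 0.08, and its WSB median of 2966 lay beside the 3045 of PWK. Vnn1, a pantetheinase, had medians of 10.3 in PWK and 8.05 in CAST, against 20.2 to 523.7 in the other 6 strains. Among 28 apolipoprotein and lipoprotein genes 6 were higher and 14 lower (median −0.15). The apolipoprotein gene Apon ranged from 1422 to 3096 in PWK (median 1713), against 1761 to 8925 in the others (median 3411), and Abcg5, a sterol exporter, differed by −1.03 ± 0.12. Both were set apart.

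Bile acid genes showed no common direction, with 9 of 29 higher and 11 lower (median −0.06). Cyp39a1, an oxysterol 7α-hydroxylase, ranged from 0 to 5.13 in PWK (median 1.28), against 0 to 895.8 in the others (median 48.3). NZO was as low, with a median of 1.87, and the 6 other strains had medians of 8.76 to 314.4. Cyp7a1, the rate-limiting enzyme of bile acid synthesis, did not pass the test, with a difference of −0.26 ± 0.46. Slc3a1, a subunit of the cystine transporter, was low in PWK and CAST alike. It ranged from 4.04 to 40.6 in PWK (median 14.2), against 5.55 to 334.5 in CAST (median 16.9) and 157.6 to 2471 in the 6 other strains. Slc16a5, a monocarboxylate transporter, gave 0 to 6.48 in PWK (median 1.85) and a median of 6.33 in CAST.

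**Figure D3:**
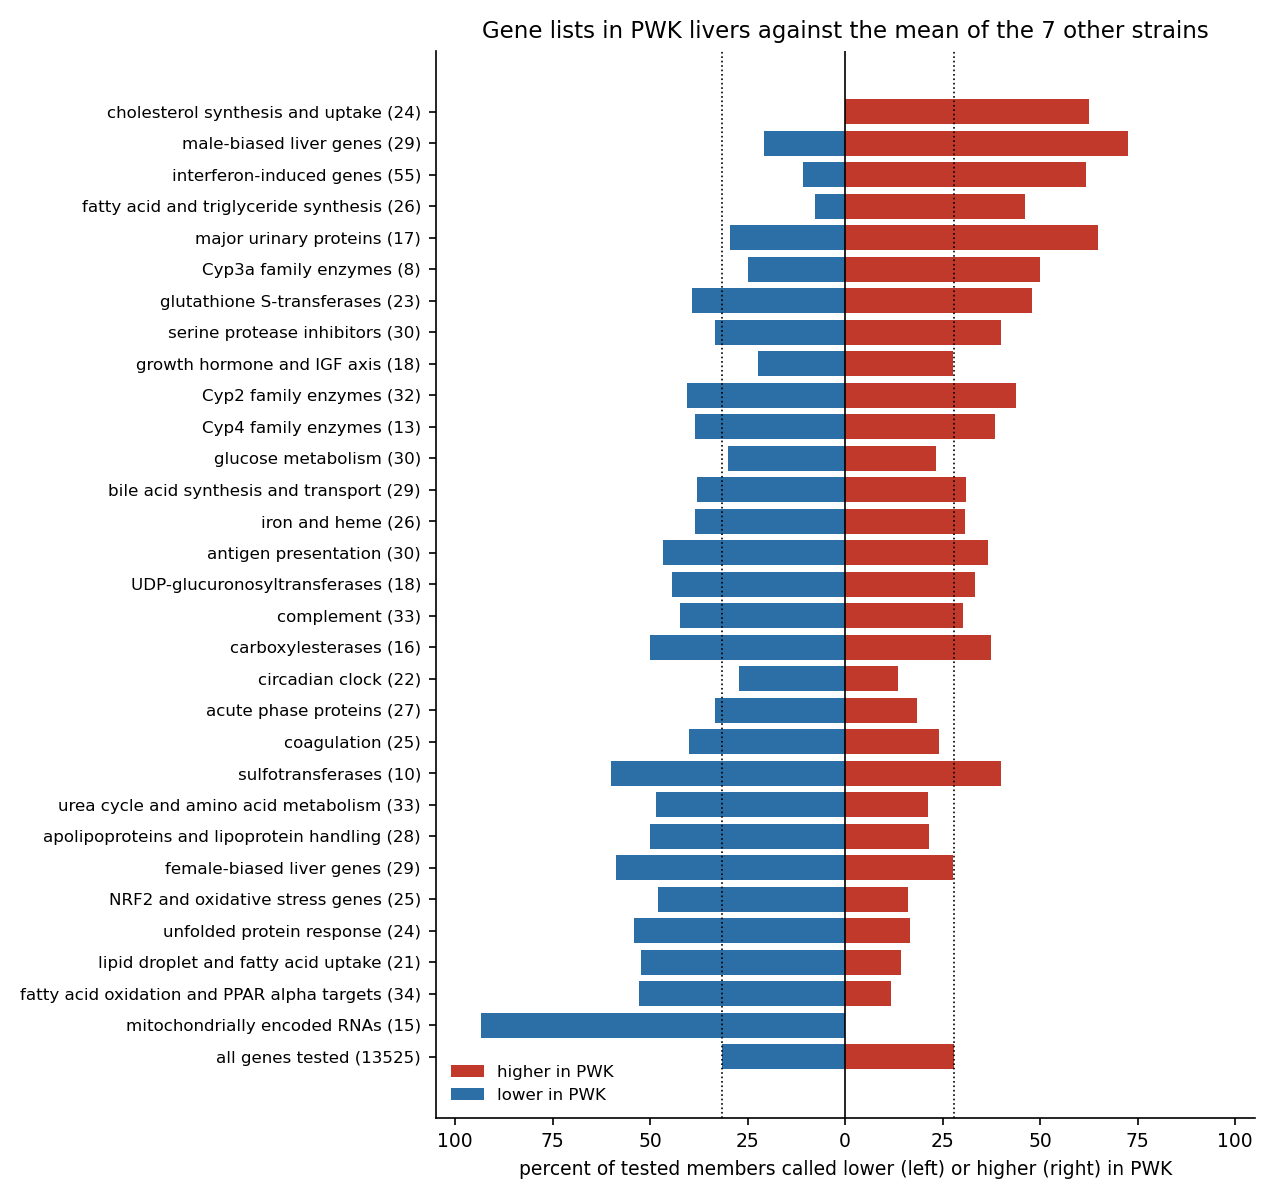
Percent of the tested members of each gene list called higher (red, right) or lower (blue, left) in PWK than in the mean of the 7 other strains, with the number tested in parentheses; the dotted lines mark the shares over all genes, 27.9% higher and 31.6% lower. Cholesterol genes (15 of 24) and interferon-induced genes (34 of 55) were mostly higher, and fatty acid oxidation genes (18 of 34) and mitochondrially encoded RNAs (14 of 15) mostly lower.

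Secreted proteins differed gene by gene. Of 33 complement genes 10 were higher and 14 lower, and of 25 coagulation genes 6 were higher and 10 lower. C4a, a complement C4 homolog known as sex-limited protein, ranged from 185.4 to 345.2 in PWK (median 290.1), against 252.5 to 17980 in the others (median 6601), a difference of −4.09 ± 0.12. B6 was nearest, with a median of 989.7 and 1 library as low as PWK. The adjacent Cyp21a1, a steroid 21-hydroxylase, was low as well, at 0 to 9.67 in PWK (median 1.32), against 4.19 to 351.2 in the others (median 53.5). C4b, the complement C4 gene of the same cluster, differed by only −0.30.

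C1s2, a C1s protease gene, was highest in PWK, at 492.6 to 744.8 (median 607.8), against 0 to 503.1 in the others (median 298.4). That median hides 2 levels: 129S1, B6 and NZO lay at 0 to 5.55, and CAST, WSB, AJ and NOD at 128.0 to 503.1. Cpb2, a carboxypeptidase that slows clot lysis, ranged from 279.7 to 1083 in PWK (median 442.6), against 1552 to 8579 in the others (median 3181). Its difference of −2.80 ± 0.10 (adjusted p = 5.15e-51) came with no overlap. Serpina1c, an α1-antitrypsin copy with 41.5% unique windows, ranged from 6874 to 9740 in PWK and from 9451 to 34126 in CAST, against 15380 to 104969 in the other 6 strains. The copy Serpina1a (57.2% unique windows) went the other way, at 74476 to 105535 in PWK (median 89200), against a median of 47596 in the others. It was not set apart, with a WSB median of 79463, and how reads split between the copies is uncertain.

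Interferon-induced genes were mostly higher in PWK, with sharp exceptions. Of 55 tested 34 were higher, 6 lower and 15 not called, with a median of 0.39. On HF alone 33 were higher and on chow alone 22, where 21.1% and 23.9% of all genes were. When the change with diet was itself tested, 0 of the 55 passed. Mx2, an antiviral GTPase, ranged from 607.2 to 1913 in PWK (median 855.6), against 0 to 926.0 in the others (median 79.3), a difference of 3.89 ± 0.19. CAST had a median of 485.2, and NZO was at 0 to 5.61. Mx1, its neighbour, ranged from 29 to 182.9 in PWK (median 61.9), against 0 to 176.9 in the others (median 8.35). NZO, with a median of 119.7, was above PWK for Mx1. Tmprss2, a membrane protease gene of the same stretch of chromosome 16, was set apart downward, at 5.55 to 74.5 in PWK (median 11.6), against 12.5 to 276.3 in the others (median 95.3).

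Xaf1, a pro-apoptotic gene, ranged from 129.1 to 507.9 in PWK (median 269.9), against 13.1 to 253.5 in the others (median 56.4). Oasl2 differed by 1.69 ± 0.15 and Irgm2, an immunity-related GTPase, by 1.40 ± 0.16, and all 3 were set apart upward. Ifi27 was set apart downward, at 55.2 to 209.7 in PWK (median 105.8), against 177.0 to 1845 in the others (median 466.0). Trim12c and Lgals3bp are not members of the interferon-induced list. Trim12c, a relative of the retroviral restriction factor gene TRIM5, ranged from 0 to 2.27 in PWK (median 0), against 16.4 to 371.2 in the others (median 96.9). No library overlapped, and its neighbour Trim12a was lower by −3.64 ± 0.14. Lgals3bp, a secreted galectin-binding protein, ranged from 2003 to 3501 in PWK (median 2477), against 308.2 to 1154 in the others (median 499.4), a difference of 2.34 ± 0.07 (adjusted p = 1.16e-60). It too had no overlap.

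Antigen presentation genes went both ways. Of 30 tested 11 were higher and 14 lower, and 9 were set apart, all downward. H2-K1, a classical class I gene, ranged from 737.0 to 1218 in PWK (median 925.7), against 854.6 to 8240 in the others (median 3457), with NOD nearest at a median of 1116. H2-Q1 ranged from 0 to 2.74 in PWK (median 0), against 0 to 421.5 in the others (median 23.7). H2-Q7 differed by −2.63 ± 0.12, and B2m, the shared light chain, by −0.52 ± 0.04. Other class I and class I-like genes were higher. H2-Q2 ranged from 123.1 to 215.0 in PWK, against 105.4 to 157.1 in NOD, 49.8 to 149.4 in NZO and 0 to 23.7 in the 5 remaining strains, a difference of 3.86 ± 0.15. Cd1d2, a CD1 gene whose family presents lipids, was at 49 to 91.3 in PWK and 62.2 to 116.9 in NZO, against 0 to 17.9 elsewhere, a difference of 4.08 ± 0.17. Among class II genes H2-Aa was higher by 1.33 ± 0.19, with a median of 434.3 and a highest value of 768.5 in PWK, against a median of 152.9 and a highest value of 1452 in the others. H2-Eb1 was low, with a median of 5.82 in PWK and 1.10 in WSB, against 65.9 to 228.8 in the other 6 strains. The H2 genes are highly polymorphic.

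Several RNAs better known from other organs were plain in every PWK liver. Miox, which breaks down myo-inositol and is best known from kidney, ranged from 272.4 to 454.9 in PWK (median 312.3), against 0 to 5.38 in the others (median 0), a difference of 7.95 ± 0.17 (adjusted p = 3.23e-73). The kidney markers Umod and Slc12a1 had medians under 1 in PWK. Adm2, the peptide hormone gene beside Miox, ranged from 2.05 to 19.4 in PWK (median 9.58), against 0 to 0.876 in the others (median 0). Neither gene overlapped another strain in any library.

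Ubash3a, a regulator of T cell receptor signalling, ranged from 134.3 to 338.8 in PWK (median 230.0), against 0 to 8.20 in the others (median 0), with no overlap. Dntt, the template-independent DNA polymerase of developing lymphocytes, ranged from 65.6 to 970.8 (median 421.0), against 0 to 85.6 (median 7.43). The 13 lymphocyte markers together gave 74.5 to 182.5 in PWK (median 106.4), against 21.4 to 3005 in the others (median 102.2). Ighm had the highest median of the 13 in both groups and so weighed most in these sums. Medians of Cd8a and Gzma were higher in PWK, and those of Cd4 and Cd3e were lower. The filter removed 11 of the 13, and neither of the 2 that passed it was called. Whether lymphocytes were the source of the Ubash3a and Dntt RNAs was not tested. Tff3, a mucosal trefoil peptide beside Ubash3a on chromosome 17, ranged from 210.4 to 1445 in PWK (median 747.1), against 0 to 904.4 in the others (median 19.8). The other gallbladder and bowel markers in the table, Tff2, Vil1 and Muc5b, had medians under 1 in PWK. Myom2, a protein of the muscle M-band, ranged from 199.8 to 720.6 in PWK (median 510.2), against 0 to 266.2 in the others, where 129S1 (median 114.1) and NZO (median 171.7) were also above 0. The muscle markers Ckm and Acta1 were listed at 0 in all PWK libraries.

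Cav1, which builds caveolae, ranged from 737.1 to 1751 in PWK (median 1274), against 4.78 to 283.1 in the others (median 22.7), a difference of 5.47 ± 0.15 (adjusted p = 1.63e-61) with no overlap. Its neighbour Cav2 was higher by 1.31 ± 0.13, with overlap. Cav1 is abundant in endothelium, where 4 of 8 markers were higher and 1 lower and the sums were 2003 to 2790 in PWK (median 2553), against 1359 to 3137 in the others (median 2392). Their part in the Cav1 result was not tested. Aph1c, a γ-secretase subunit gene, ranged from 233.9 to 430.7 in PWK (median 302.8), against 0 to 21.6 in the others (median 4.06).

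Both E2f7 and Hjurp, genes tied to the cell cycle, were set apart upward. E2f7, an atypical E2F repressor known for its part in hepatocyte polyploidy, ranged from 553.9 to 2342 in PWK (median 1299), against 0 to 538.3 in the others (median 11.3), with CAST nearest at 137.2. Hjurp, the chaperone of the centromere histone CENP-A, ranged from 3086 to 15732 in PWK (median 6177), against 138.9 to 1192 in the others (median 475.2). Neither overlapped. Of 6 cell division markers Birc5 (1.68) and Ccna2 (0.61) were higher and none was lower, and their sum was 32 to 222.0 in PWK (median 68.3), against 7.78 to 458.6 in the others (median 45.2).

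Markers of non-parenchymal cells moved unevenly. Of 12 macrophage markers 2 were higher and 4 lower, where 27.9% and 31.6% of all genes were. Their summed level was 3159 to 6052 in PWK (median 3836), against 1345 to 9767 in the others (median 3977). Clec4f had medians of 728.7 in PWK and 476.9 in the others, and Mpeg1 had medians of 1873 and 1373. Marco, a macrophage scavenger receptor, was set apart downward, at 1.39 to 76.3 in PWK (median 10.4), against 8.29 to 1054 in the others (median 176.1). Lyz2, lysozyme, ranged from 67.4 to 248.3 (median 105.3), against 87.4 to 1665 (median 427.6). Of 9 stellate cell markers 6 were lower and none higher, with sums of 1310 to 2029 in PWK (median 1633), against 1321 to 5049 in the others (median 2289). Among them Col1a2, a fibrillar collagen chain, differed by −1.27 ± 0.15. In bulk liver, fewer cells of a type and less RNA per cell cannot be told apart.

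RNAs encoded by the mitochondrial genome were nearly all lower, a list added after the values were seen. Of 15 tested 14 were lower and 1, mt-Atp8, was not called, with a median of −0.74, and 8 were set apart. On HF 14 were lower (median −0.88), and on chow 10 were lower and 1 higher (median −0.60). Of all genes 25.9% were lower on HF and 25.4% on chow. When the change with diet was itself tested, 0 of the 15 passed. mt-Nd2, a subunit of respiratory complex I, ranged from 6527 to 11966 in PWK (median 9520), against 11667 to 51072 in the others (median 29041), a difference of −1.63 ± 0.06 (adjusted p = 7.58e-53). mt-Nd6 ranged from 1799 to 3890 (median 3004), against 3837 to 12809 (median 8014), a difference of −1.48 ± 0.07. The list was not uniform. mt-Nd4 differed by −0.22 ± 0.06, and mt-Co1, with medians of 105184 in PWK and 87637 in CAST, was not lower than in CAST. Several of these RNAs share windows with other annotated genes, and among members with at least 95% unique windows 7 were lower.

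In amino acid metabolism 7 of 33 genes were higher and 16 lower, and 5 were set apart downward. Mat1a, which makes the methyl donor S-adenosylmethionine, ranged from 1843 to 25247 in PWK (median 15192), against 16645 to 105909 in the others (median 33584), a difference of −1.47 ± 0.13. Bhmt, which remethylates homocysteine, differed by −1.40 ± 0.14 and Got1, an aspartate aminotransferase, by −1.27 ± 0.21. In contrast Haao, an enzyme of tryptophan breakdown, was set apart upward by 0.92. The oxidative stress list had 4 of 25 genes higher and 12 lower, and Ftl1, ferritin light chain with 65.6% unique windows, was set apart downward by −0.82 ± 0.07.

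Strain differences of Hc, Nnt and Cwc22 known from earlier mouse work fell mainly on other strains. Mx1, described above, was in contrast high in PWK (median 61.9) and in NZO (median 119.7). Hc, complement C5, had medians of 7260 in PWK, 2643 in AJ and 2487 in NOD. Nnt, which is partly deleted in C57BL/6J, had a median of 762.8 in PWK and 392.6 in B6. Cwc22, a splicing factor gene, was at 53 to 105.7 in PWK and at 2851 to 4209 in WSB. Hc and Nnt did not differ from the mean of the others by the test. Cwc22 was set apart downward in PWK, with a median of 75.4 in PWK against 94 to 116.9 in the 6 strains other than WSB.

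Among the genes more than 2-fold from the mean, PWK often had company. Of these 1663 genes 711 (42.8%) passed against all 7 strains and 511 (30.7%) against 6. In 264 of the 511 the strain that did not pass was CAST, against 22 to 74 for each other strain. Likewise CAST was the nearest strain for 473 of the 1582 set apart genes (29.9%), WSB for 266 (16.8%) and 129S1 for 7.33%. CAST was not nearest over the genome, however. PWK differed from CAST in 7728 genes and from B6 in 7129, the largest and smallest counts among the 7 pairs.

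Some set apart genes lay side by side. An adjacent tested gene was set apart for 449 of 1529 placed set apart genes (29.4%), against 2851 of all 13069 placed genes (21.8%). This difference in shares was not tested. The direction was shared in 299 (19.6%). Adm2 with Miox, Tff3 with Ubash3a and Cav1 with Cav2 were pairs that were higher in PWK. Gstm2 with Gstm3, Trim12a with Trim12c and C4a with Cyp21a1 were pairs that were lower.

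Genes called on both diets nearly all kept their direction. Within HF 6361 genes differed between PWK and the others (21.1% of those tested higher and 25.9% lower), and within chow 6667 (23.9% higher and 25.4% lower). In 4621 genes both diets gave a call in the same direction and in 23 in opposite directions. Set apart genes numbered 1036 on HF and 1080 on chow, with 659 in the same direction on both. The interaction test gave an unadjusted p under 0.05 in 2334 genes (17.3%). After adjustment the strain difference itself depended on diet in 273 genes (2.02%), 130 more positive on HF and the rest more negative. With animals weighted by their spread (array weights) the share was 7.39%, and against CAST and WSB alone 0.776%. It varied with single animals too, being 1.03%, 1.26% and 0.865% of genes without PWK HF replicate 4, 5 or 7, and 0.983%, 0.643%, 1.15% and 0.88% without PWK chow replicate 2, 4, 5 or 6. Diet changed 422 genes within PWK.

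Meg3, an imprinted long non-coding RNA, gave one of the smallest interaction p-values. It ranged from 8.31 to 1444 in PWK HF livers (median 127.7) and from 4.71 to 9.26 in PWK chow livers (median 6.93), while the others had medians of 14.2 on HF and 23.3 on chow. The HF minus chow difference exceeded that of the others by 4.65 ± 0.48 (adjusted p = 1.58e-12). Plch1, a phospholipase C, behaved alike, with 12.8 to 100.9 in PWK HF (median 30.8) and 0 to 5.56 in PWK chow (median 1.05), and medians of 3.02 and 3.66 in the others on HF and chow. Gdpd1, a glycerophosphodiesterase, had a median of 23.9 and a highest value of 40.5 in PWK HF and ranged from 3.08 to 8.33 in PWK chow, so the diets did not overlap for either gene. Against the mean of the others all 3 were lower on chow and higher on HF. Strain by strain, the medians followed this on both diets for Gdpd1 only. On chow the Meg3 median was lower still in AJ, and that of Plch1 in 129S1 and B6. On HF the CAST median of Meg3 and the NOD median of Plch1 lay close to those of PWK.

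Col5a2, a collagen chain, moved down. It ranged from 163.2 to 458.0 in PWK HF (median 251.1) and from 1456 to 4912 in PWK chow (median 2842), while the others had medians of 27 on HF and 27.6 on chow. The interaction was −3.11 ± 0.37 (adjusted p = 2.34e-10), but those pooled medians hide WSB, the other strain with a high level, where medians of 2056 on HF and 6300 on chow also ran downward. The fall of Sqle on HF, seen in the others with medians of 24.7 on HF and 419.5 on chow, was smaller in PWK, with 170.2 on HF and 292.2 on chow. Squalene epoxidase, the product of Sqle, is a sterol-regulated step, and its interaction was 2.47 ± 0.64. Rdh16 was further below the others on HF (−5.31) than on chow (−3.28).

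**Figure D4:**
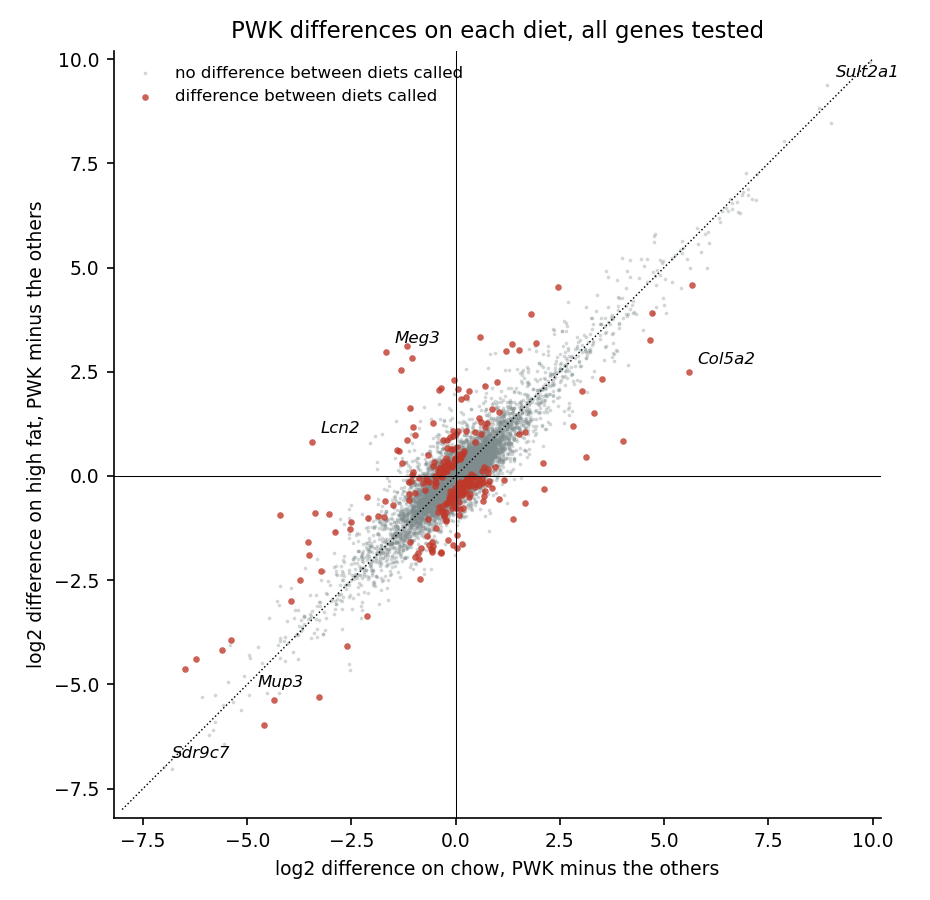
Log2 difference of PWK from the mean of the 7 other strains on high fat (vertical) and on chow (horizontal) for all genes tested, with the dotted line where both diets agree and the 273 genes with a called diet difference in red. Sult2a1, Mup3 and Sdr9c7 lie near the line, Meg3 and Lcn2 above it and Col5a2 below it.

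Acute phase proteins, which the liver secretes in inflammation, gave different counts on the 2 diets. On HF 11 of 27 were higher in PWK than in the others and 1 lower, with a median of 0.59, where 21.1% and 25.9% of all genes were called in those directions. On chow 2 were higher and 13 lower, with a median of −0.73, where 23.9% and 25.4% of all genes were. On chow 7 were lower against CAST and WSB alone, where 23.3% of all genes were. The interaction passed for 5 of the 27, Orm1, Lcn2, Saa3, Apcs and Orm2, all more positive on HF. Orm1, orosomucoid, ranged from 1458 to 29298 in PWK HF (median 4081) and from 149.4 to 4420 in PWK chow (median 784.0), while the others had medians of 8370 on HF and 10603 on chow. Its interaction was 2.49 ± 0.45 (adjusted p = 2.04e-04). Lcn2, an iron-siderophore binding protein, ranged from 119.3 to 14401 in PWK HF (median 3770) and from 55.1 to 2898 in PWK chow (median 81.1). The ranges of the 2 diets overlapped for both genes.

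PWK HF replicate 5 had the highest level among PWK libraries of all 5 of these genes, and the lowest Mup share. Without it 7 acute phase genes were higher on HF and 1 lower (20.7% of all genes were higher), the median on HF was 0.39, and the interaction passed for Lcn2 and Orm1 but not for Saa3, Apcs and Orm2. Saa3 and Orm2 had an adjusted p of 0.0484 with it and of 0.116 and 0.144 without it. On chow 2 were higher and 14 lower in that fit, against 23.9% and 25.5% of all genes. The unfolded protein response list, chaperones and sensors of the endoplasmic reticulum, had 3 of 24 genes higher and 3 lower on HF (median −0.10), and 2 higher and 16 lower on chow (median −0.49). On chow 1 was lower against CAST and WSB alone (23.3% of all genes), and 10 were without 129S1 in the reference (24.7% of all genes). The diet difference passed for only 1 of these 24, Asns. For Asns the highest PWK HF value, 213.86 in HF replicate 5, stood apart from the next, 55.77.

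**Figure D5:**
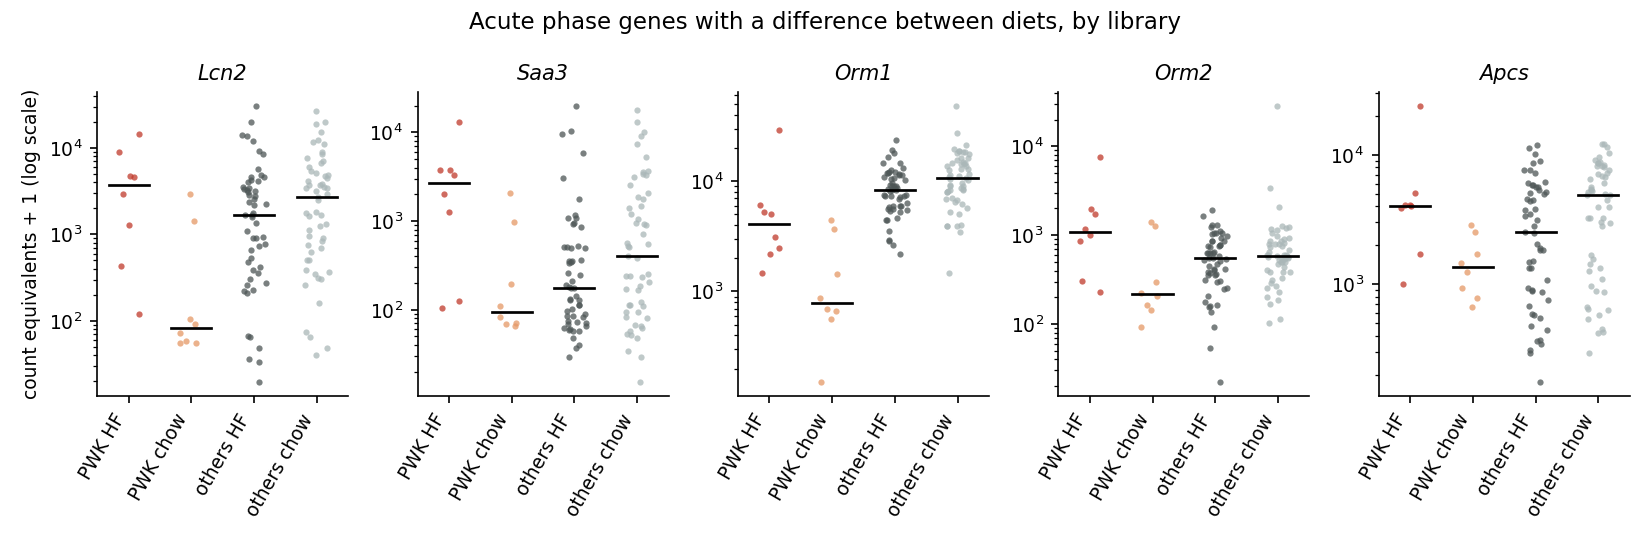
Levels of 5 acute phase RNAs in single libraries of PWK on high fat and on chow and of the other strains on high fat and on chow, in count equivalents + 1 on a log axis, with a black line at each median. In all 5 genes the PWK median is higher on high fat than on chow, the ranges overlap, and the highest PWK point is high fat replicate 5.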

How the data were processed

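Per the labels, liver mRNA of founder males was sequenced as 100 base single-end TruSeq libraries, with 1 animal of each group in each of 8 lanes. Per the submitters' processing notes, CASAVA 1.8.0, Bowtie 0.12.8 and RSEM 1.2.1 were used with NCBIM37 (mm9). The name of the deposited founder table says that reads were aligned to strain genomes. How these were built is not stated, and an incomplete strain genome could lower a gene or move its reads to a like copy. The deposited founder table holds a signal normalised by the authors, with an upper quartile of 1 in each column. It was multiplied by the mean of 114.818 counts per unit to give count equivalents. Only 83.25% of recovered values were whole within 0.1, so no count model was used and the depth given is an estimate. Precision is limited by 8 animals per group.

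log2(count equivalents + 1) was fitted with limma 3.58.1 (R 4.3.3, trend) over 16 strain and diet groups, for genes with at least 10 in at least 8 libraries. P-values are two-sided and Benjamini-Hochberg adjusted over all 13525 genes, with a threshold of 0.05. Symbols and unique 100-base windows came from GENCODE on GRCm38, another build than that of the files, so gene order is that of GRCm38. Python 3.11.15 was used for tables and figures.

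The comparison, its members and the gene lists were chosen with earlier results of these data known. Named genes were, without predicted symbols, the 14 highest and 14 lowest set apart genes with a mean of 6 or more on the log2 scale, the 8 highest and 8 lowest with 11 or more, up to 3 of each list by p, the 4 smallest interaction p-values, and Mx1, Oas1b, Hc, Nnt, Glo1, Cwc22 and Alb. Not every gene of this rule is printed. Other genes were named after their values were seen, as neighbours, list members or contrasts. Alternatives covered scaling, filter, pseudocount, weights, lane, strains in the reference, diets and each PWK library left out. Some members of the gene lists are not reported here by name. The Diversity Outbred libraries were not used.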

Additional observations from a re-analysis of the deposited data

Results flagged for a closer look

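In 272 sets of 8 PWK animals, each a gene on 1 diet, 21 had 1 animal far from the other 7 by Dixon's test at the 95% level on the log2 scale. Chance gives about 1 in 20. Over all genes tested, each PWK library stood apart by the same rule in 0.34% to 3.33% of them. Whether the genes described here exceed the share over all genes was not tested. PWK HF replicate 5 was the animal that stood apart for 11 genes. It was lowest for Mup9 (107773 count equivalents), Mup20 (12661), Cyp2d11 (527.36), Gsta1 (4.636), Haao (1914) and H2-Aa (141.99). It was highest for Tmprss2 (74.50), Cav2 (162.15), Wfdc21 (262.06), Asns (213.86) and Hc (10406).

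Other animals stood apart in single genes. PWK chow replicate 7 was lowest for Mup21 (8387), replicate 5 for Moxd1 (128.82) and Ccna2 (2.109) and replicate 8 for Alb (302799). PWK HF replicate 4 was lowest for Oas1b (2.252), and replicate 1 was highest for H2-K1 (1218). Lone values above 7 zeros were Sult1e1 at 1.852 in chow replicate 8, Ifi27l2a at 0.9427 in chow replicate 1, and Trim12c at 0.8761 and H2-Q1 at 2.742 in HF replicate 8.

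For 19 of the genes described or named, the PWK difference from the others changed with diet by the interaction test. On the log2 scale the HF minus chow change was more positive in PWK for Meg3 (4.65), Lcn2 (4.28), Plch1 (3.88), Saa3 (3.84), Gdpd1 (2.72), Orm1 (2.49), Sqle (2.47), Asns (2.46), Orm2 (2.21), Apcs (2.04), Wfdc21 (1.84), Vnn1 (1.56), Rdh16f2 (1.46) and Slc3a1 (1.42). It was more negative for Col5a2 (−3.11), Rdh16 (−2.03), Cyp4f14 (−1.02), Mat1a (−0.97) and Rdh7 (−0.40). All these values include HF replicate 5, which stood apart in Asns and Wfdc21. Without it the interaction did not pass for Saa3, Apcs and Orm2. Values without it are not given for Asns, Wfdc21, Sqle, Vnn1, Rdh16f2, Slc3a1, Rdh16, Cyp4f14, Mat1a and Rdh7.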

How the results depend on the processing

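No paired analysis was possible because the replicate numbers, given in accession order, pair no animals. Sequencing lane, which holds 1 animal of each group, was fitted as a term instead, and no summary result moved by over 1.5 times. Of 19 summary results under 38 alternatives, 663 values stayed within 1.5 times the reported count and 29 did not. Genes set apart upward numbered 1071 with no filter and 453 on high fat alone, and those set apart downward 558 on chow alone. Genes past 2-fold numbered 976 with a filter of 50. Genes with a diet difference, 2.02% of those tested, became 7.39% with array weights, 3.08%, 3.16% and 0.835% with AJ, CAST or NZO left out of the reference, 3.09% against the 5 classical strains and 0.776% against CAST and WSB. Leaving out 1 PWK library gave 0.643% to 2.87%. The 11 acute phase genes higher on high fat became 7 to 14 when 1 library was left out. Unfolded protein response genes lower on chow numbered 10 without 129S1 in the reference and 1 against CAST and WSB. Against CAST and WSB 11 oxidation genes, 7 acute phase genes on chow and 9 female-biased genes were lower and 9 male-biased genes higher. Cholesterol genes higher numbered 7 against the 5 classical strains and 7 on chow alone, and interferon-induced genes 22 on chow alone. With at least 95% unique windows, an alternative chosen after seeing the data, 3 Mup genes were higher and 7 mitochondrial RNAs lower. Among results for named genes 31 changed direction or side of the threshold under at least 1 alternative and the rest did not. Reversed results have the opposite sign and passed the test in at least 1 of the fits. Against CAST and WSB these were Mup10 (0.57), Mup1 (0.75), Moxd1 (−0.079), Lcn2 (0.52), Apcs (1.39), Meg3 (−0.27), Hc (−0.71), Glo1 (0.077), Rdh9 (1.78) and Alb (0.29). On chow alone they were Sqle (−0.41), Meg3 (−1.67), Gdpd1 (−1.10), Plch1 (−1.04), Rdh7 (0.050) and Asns (−0.36), and on high fat alone Lcn2 (0.82) and Apcs (0.86). Mup2 was at −1.65 against the 5 classical strains and at −0.58, −0.80 and −0.55 without B6, CAST or WSB in the reference. The cause was not tested. The median gene shifted by −0.02 as reported and by −0.05 with equal totals.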
